A study of Mus musculus with 6 samples.

Results

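The flavin-containing monooxygenases (FMOs) of the mouse were followed in livers of mice that received the coumarin derivative esculetin during a short high-fat challenge. The members described are the 4 genes Fmo1, Fmo2, Fmo4 and Fmo5, chosen by name as the rows of the count table whose Ensembl identifiers carry these symbols in GENCODE, 4 of 55357 identifiers in all. Bulk RNA of whole liver was sequenced in 6 libraries, 3 of a vehicle group and 3 of an esculetin group. A library pooled the livers of 2 mice, so that 6 mice stood behind each group. All mice were wild-type (WT) C57BL6/J males of 8 to 9 weeks, and the oral gavage of all of them lasted 7 days. The vehicle group received 2.5% Tween-80. For the esculetin group, titles and protocol state a dose of 180 mg/kg/d while the treatment field of the same libraries states 90 mg/kg/d, and no dose is used here. Both groups ate a control diet with 10% of kcal from fat for 4 days and then a high-fat diet (HFD) with 60% of kcal from fat for 3 days, so the comparison is of esculetin against vehicle under the HFD, and the effect of the diet was not analysed here.

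FMOs are membrane enzymes of the endoplasmic reticulum that bind FAD, take electrons from NADPH and place an oxygen atom on the soft nitrogen or sulfur of drugs, dietary amines and endogenous thiols. FMO1 is a major hepatic form in mice and is also able to make taurine from hypotaurine, FMO2 is best known from lung, FMO4 is a little studied form, and FMO5 mainly acts as a Baeyer-Villiger monooxygenase that inserts oxygen beside a carbonyl group.

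Total counts per library lay between 27957713 and 34920922, and every esculetin library (32883985 or more) was deeper than every vehicle library (31889710 or less). Levels are therefore given as CPM, the count of a gene relative to the TMM-normalized total of its library, and on this scale the floor of 3 counts corresponds to between 0.0865 and 0.109 CPM. Of the identifiers, 14433 passed the expression filter of edgeR and were tested, and their median log2 fold change was -0.0080. The hepatocyte markers Alb, Ttr, Apob, Cps1 and Hnf4a together held 76611 to 80527 CPM in the vehicle libraries and 73264 to 79057 CPM in the esculetin libraries. P-values measure the spread between pools of mice within a group.

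Fmo1, Fmo2 and Fmo4 lie on the minus strand of chromosome 1 (GRCm39), and Fmo5 lies on the plus strand of chromosome 3. Because the genes are related, sequence shared between their transcripts was measured first, since reads from shared stretches could be counted for the wrong gene. The longest identical run between annotated transcripts of any pair of the 4 genes was 24 bases long. It is shown because it is short beside the 150-bp paired-end reads of the study, and the other pairs shared runs of 12 to 22 bases.
Fmo1 and Fmo5: catcaagtgctgcctggaagaggg
Of the 50-base windows in a gene's transcripts, none of Fmo2 and Fmo4 occurred in transcripts of another gene. The share was 4.47% for Fmo1 and 0.367% for Fmo5. No other annotated gene of the count table overlapped any of the 4 genes, while whether counting used the strand is not given in the sources used here.

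With esculetin, Fmo2 was upregulated past the thresholds of the study (a fold change over 1.5 together with p under 0.05, taken here as the unadjusted p-value). Fmo1 and Fmo5 were higher by a smaller factor at an unadjusted p-value under 0.05, and Fmo4 did not pass the test. Thus 1 of 4 genes passed both thresholds, where 3.13% of all genes tested did so in either direction and 1.37% were higher. Without the fold threshold, 3 of 4 genes were higher, beside 6.53% of all genes tested that were higher and 11.9% that differed either way. The smallest adjusted p-value among the 4 was 0.136 (edgeR quasi-likelihood test with Benjamini-Hochberg adjustment), so 0 of 4 passed an adjusted p-value of 0.05, which 0.0416% of all genes tested did. In liver RNA, more cells that transcribe a gene and more RNA of it per cell cannot be told apart.

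Fmo2 (ENSMUSG00000040170; chromosome 1, 162701873 to 162726295) had 628, 575 and 603 counts in the vehicle libraries and 949, 1095 and 1582 counts in the esculetin libraries. These are 21.4, 17.6 and 22.0 CPM with vehicle and 29.5, 31.6 and 47.2 CPM with esculetin. The groups did not overlap, and esculetin replicate 3 stood above the other two esculetin libraries. The mean rose from 20.3 ± 2.35 CPM to 36.1 ± 9.70 CPM (SD, n = 3), a fold change of 1.78 with a 95% interval of 1.36 to 2.32. The log2 fold change was 0.83 (SE 0.17), with unadjusted p = 0.000781 and an adjusted p-value of 0.136 (edgeR), and the gene ranked 80 of 14433 by p-value. Without esculetin replicate 3, the log2 fold change was 0.59 (unadjusted p = 0.000607, edgeR) and still past both thresholds. Only with DESeq2 and with no filter on low counts did its adjusted p-value fall under 0.05 (0.00072 and 7.82e-08).

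Fmo5 (ENSMUSG00000028088; chromosome 3, 97531564 to 97562598), the most abundant member, had 25545, 29005 and 26885 counts with vehicle and 36720, 38680 and 35126 counts with esculetin. In CPM these were 869.7, 890.2 and 980.4 with vehicle and 1142, 1115 and 1049 with esculetin. All esculetin libraries again lay above all vehicle libraries, although the gap between the nearest libraries was narrow. The mean was 913 ± 58.9 CPM with vehicle and 1102 ± 47.8 CPM with esculetin (SD, n = 3). The log2 fold change was 0.27 (SE 0.081), a fold change of 1.21 (95% interval 1.06 to 1.37), with unadjusted p = 0.00775 and an adjusted p-value of 0.252 (edgeR). It stayed between 0.24 and 0.33 with each library left out.

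Fmo1 (ENSMUSG00000040181; chromosome 1, 162655471 to 162694185), the other abundant hepatic form, had 5960, 5382 and 4425 counts with vehicle and 6414, 7864 and 7690 counts with esculetin. The vehicle libraries held 202.9, 165.2 and 161.4 CPM and the esculetin libraries 199.4, 226.7 and 229.6 CPM. The groups overlapped, since vehicle replicate 1 lay above esculetin replicate 1. The mean was 176 ± 23.0 CPM with vehicle and 219 ± 16.7 CPM with esculetin (SD, n = 3). The log2 fold change was 0.31 (SE 0.10), a fold change of 1.24 (95% interval 1.05 to 1.46), with unadjusted p = 0.0146 and an adjusted p-value of 0.294 (edgeR). Its unadjusted p-value rose above 0.05 without vehicle replicate 2 (log2 fold change 0.27, unadjusted p = 0.0586, edgeR) and without vehicle replicate 3 (0.25, unadjusted p = 0.0546).

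Fmo4 (ENSMUSG00000026692; chromosome 1, 162620757 to 162641541) had 338, 242 and 218 counts with vehicle and 259, 239 and 283 counts with esculetin. This gave 11.5, 7.43 and 7.95 CPM with vehicle and 8.05, 6.89 and 8.45 CPM with esculetin, and the groups overlapped. Vehicle replicate 1 alone stood above the rest. The means were 8.96 ± 2.22 CPM and 7.80 ± 0.811 CPM (SD, n = 3), and the log2 fold change was -0.20 (SE 0.18) with a 95% interval of -0.61 to 0.21 (unadjusted p = 0.298, adjusted p = 0.714, edgeR). Without vehicle replicate 1 it was 0.021 (unadjusted p = 0.900, edgeR), so the data gave no direction for Fmo4. The interval still allows a fall to 0.656 of the vehicle level and a rise to 1.15 of it.

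**Figure D1:**
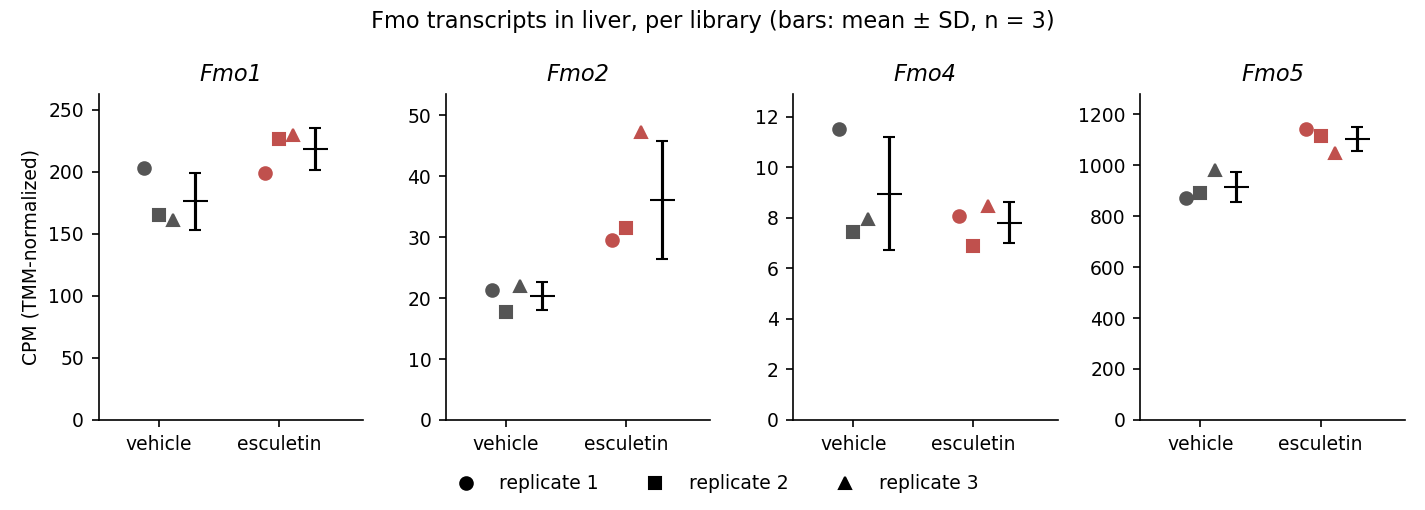
Level of each Fmo gene (vertical axis, TMM-normalized CPM, a separate scale from 0 for each gene) in the 3 vehicle libraries (grey) and the 3 esculetin libraries (red), with symbols for the replicate numbers and bars for the mean ± SD. The groups do not overlap for Fmo2 and Fmo5, while vehicle replicate 1 reaches into the esculetin range for Fmo1 and lies highest of all libraries for Fmo4.

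In the plot of levels by library, 2 of 4 genes had every esculetin library above every vehicle library, which 9.2% of all genes tested also had. For a single gene, the exact two-sided permutation test over 3 against 3 libraries cannot go below p = 0.1. It gave this value for Fmo2 and Fmo5, 0.2 for Fmo1 and 0.6 for Fmo4.

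**Figure D2:**
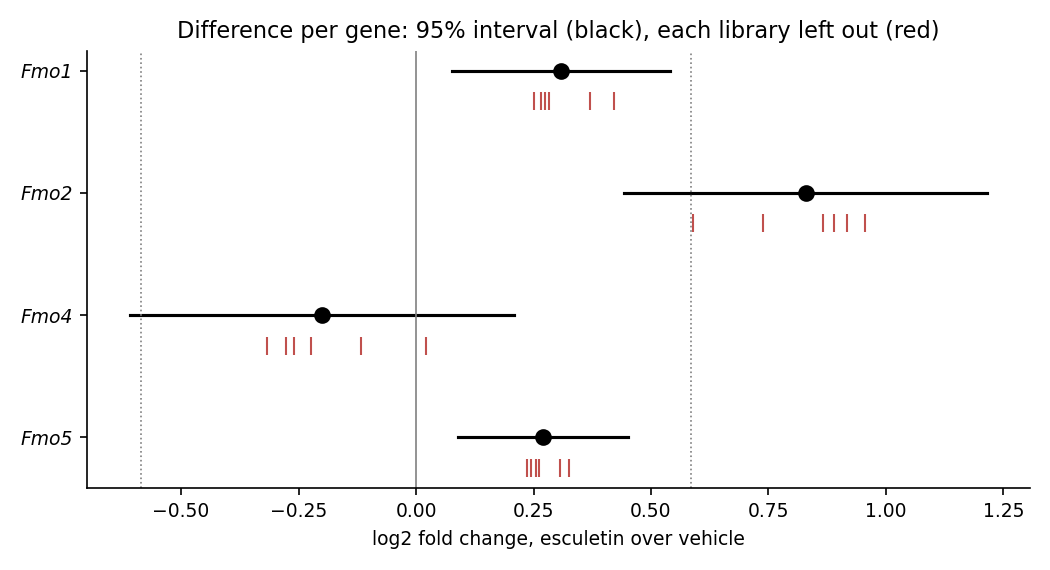
Log2 fold change of esculetin over vehicle for each Fmo gene (horizontal axis), with the 95% interval of the edgeR fit in black, the values with each library left out as red ticks, and dotted lines at a fold change of 1.5 in either direction. The intervals of Fmo1, Fmo2 and Fmo5 lie above 0, that of Fmo2 reaches from 0.44 to 1.21, and the ticks of Fmo4 reach from -0.32 to 0.021.

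Fmo6 and Fmo9 gave no signal. Fmo6, at 162744120 to 162765084, and Fmo9, at 166489624 to 166509414, both on chromosome 1, had 0 counts in all 6 libraries, which allows up to 3 counts in each. Protein-coding genes tested beside the members were examined next. Prrc2c, 52632 bases before the chromosome 1 genes, was at 49.4 ± 3.01 CPM with vehicle and 48.5 ± 3.51 CPM with esculetin (log2 fold change -0.02, unadjusted p = 0.781, edgeR). Beside Fmo5, Chd1l, a chromatin remodeller 13995 bases before it, had a log2 fold change of 0.04 (unadjusted p = 0.754, edgeR). Prkab2, which encodes a regulatory subunit of AMP-activated protein kinase and starts 2911 bases after Fmo5, moved the opposite way to Fmo5. It fell from 3.45 ± 0.933 CPM to 2.03 ± 0.249 CPM (log2 fold change -0.76, SE 0.24, unadjusted p = 0.0105, adjusted p = 0.265, edgeR), and without vehicle replicate 1 the log2 fold change was -0.52 (unadjusted p = 0.0601).

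To compare the genes with each other, CPM was divided by the length of the union of annotated exons in kilobases. On this scale Fmo5 stood at 139 ± 8.94 CPM per kb with vehicle and 167 ± 7.26 with esculetin (SD, n = 3). Fmo1 followed with 17.4 ± 2.27 and 21.6 ± 1.64 CPM per kb, and Fmo2 with 3.62 ± 0.418 and 6.42 ± 1.72 CPM per kb. Fmo4 had 2.42 ± 0.599 and 2.10 ± 0.219 CPM per kb. The order Fmo5, Fmo1, Fmo2, Fmo4 held in 6 of 6 libraries. The lowest library of Fmo5 was 5.83 times the highest library of Fmo1 (2.95 times with the length of the longest transcript). The lowest library of Fmo1 was 1.89 times the highest of Fmo2 (3.70 times with that length). For Fmo2 over Fmo4 this ratio was 1.01, and with the length of the longest transcript in place of the exon union it was 0.937, so on that length the ranges over all libraries overlapped, although Fmo2 lay above Fmo4 within every library on either length.

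**Figure D3:**
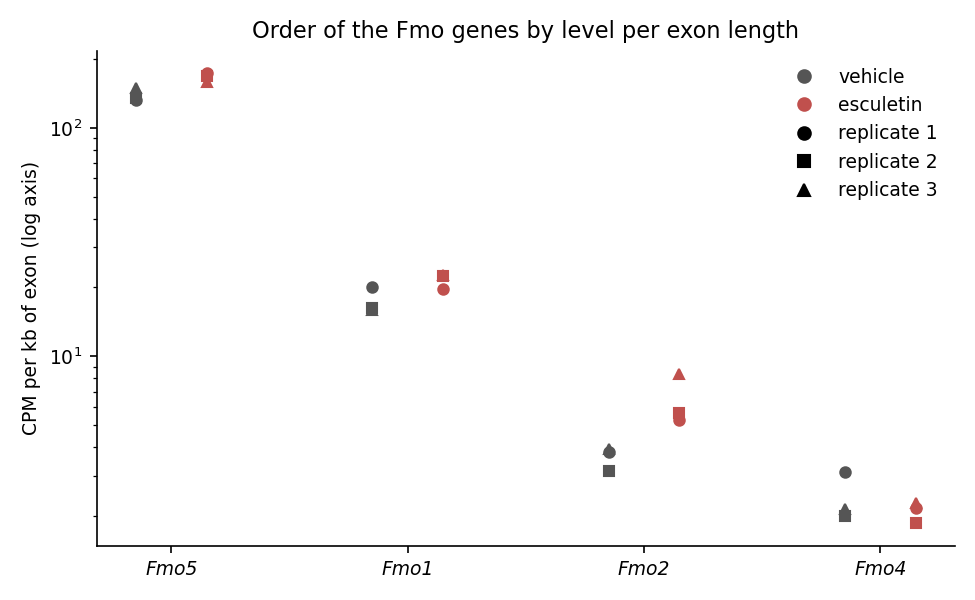
Level of each Fmo gene per exon length (vertical axis, CPM per kb of exon, log scale) in the 3 vehicle libraries (grey) and 3 esculetin libraries (red), with the genes in falling order. Fmo5 lies at or above 132 CPM per kb in every library, and the lowest Fmo2 and the highest Fmo4 library nearly meet at 3.14 and 3.10 CPM per kb.

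Summed over the 4 genes, the level per exon length was 162 ± 7.63 CPM per kb with vehicle and 197 ± 4.21 CPM per kb with esculetin, a ratio of 1.22. The groups did not overlap (exact permutation p = 0.1, the smallest possible). Fmo5 provided most of this sum, and its share was 85.5% ± 2.15 with vehicle and 84.7% ± 1.91 with esculetin (difference -0.773 percentage points, exact permutation p = 0.6). The share of Fmo1 was 10.8% ± 1.67 and 10.9% ± 1.01 (exact permutation p = 1.0). Neither share had a direction that held with each library left out, since the difference lay between -1.99 (without vehicle replicate 1) and 0.246 percentage points (without esculetin replicate 3) for Fmo5 and between -0.563 (without vehicle replicate 3) and 1.07 (without vehicle replicate 1) for Fmo1. The shares separated the groups only for Fmo2 and Fmo4. The share of Fmo2 was at most 2.39% in the vehicle libraries and 2.62%, 2.82% and 4.36% in the esculetin libraries. Fmo4 took the opposite course, with 1.95%, 1.28% and 1.26% with vehicle and at most 1.18% with esculetin. The differences in mean share were 1.04 percentage points for Fmo2 and -0.429 for Fmo4, each at the smallest exact permutation p of 0.1. They kept their sign with each library left out, but were 0.490 for Fmo2 without esculetin replicate 3 and -0.200 for Fmo4 without vehicle replicate 1. Shares of a sum depend on each other, so the lower share of Fmo4 does not by itself show a lower level. They also depend on the length used. With the longest transcript, the mean share of Fmo5 was 77.3% with vehicle and 76.5% with esculetin. That of Fmo1 was then 19.2% and 19.5%.

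**Figure D4:**
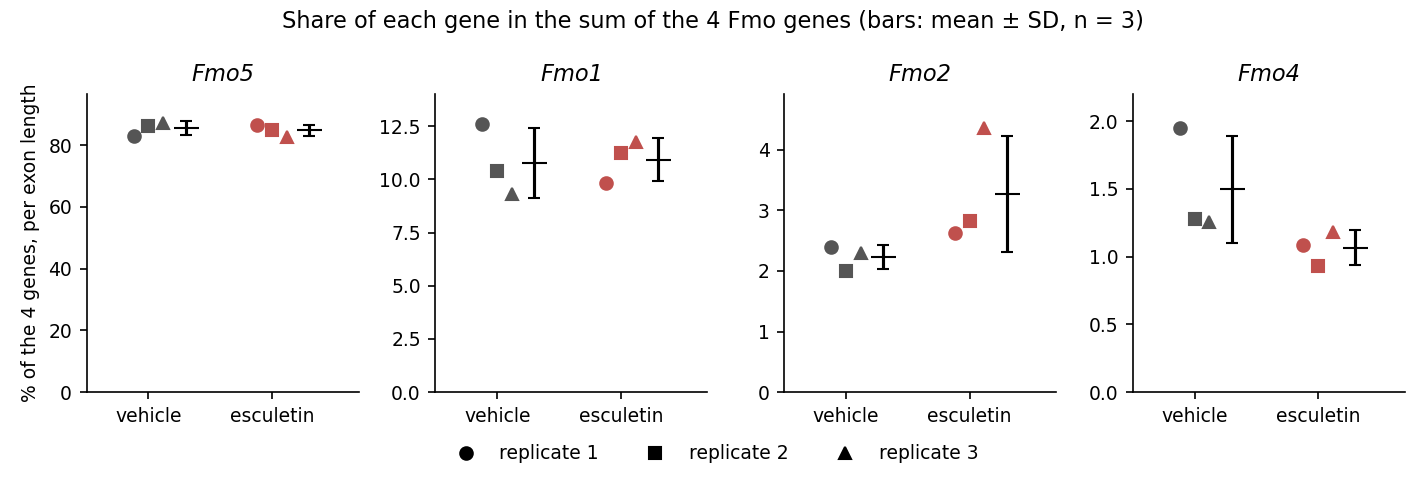
Share of each gene in the sum of the 4 Fmo genes per exon length (vertical axis, percent, a separate scale from 0 for each gene) for the 3 vehicle (grey) and 3 esculetin libraries (red), with bars for the mean ± SD. The shares of Fmo5 and Fmo1 overlap between the groups, that of Fmo2 is higher and that of Fmo4 lower in every esculetin library.

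Over the 6 libraries, the log2 CPM of Fmo1 and Fmo2 had a Pearson r of 0.813, that of Fmo2 and Fmo5 an r of 0.704, and that of Fmo4 and Fmo5 an r of -0.547. The points share the group difference and 6 libraries, and these values are given as a description. Among 7233 genes tested with a mean of at least 10 CPM, the genes most like Fmo2 by this measure were the proteasome subunit gene Psmb6 (r = 0.986), the non-coding B630019A10Rik (0.983) and Aass, the first enzyme of lysine breakdown (0.981). A high r does not mean a difference of like size. The log2 fold change was 0.087 for Psmb6 (unadjusted p = 0.238, edgeR), 0.48 for B630019A10Rik and 0.35 for Aass, beside 0.83 for Fmo2. Fmo1 was most like Gbe1, the glycogen branching enzyme (0.996), Ndufa3 of respiratory complex I (0.995) and Creg1 (0.992). Fmo5 was most like Chchd1 (0.996), Tango2 (0.996) and Mettl23 (0.994), and Fmo4 was most like the chloride transporter gene Clcn3 (0.973), Spast (0.972) and the nucleotide sugar transporter gene Slc35a3 (0.946).

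The study turns on the transcription factor C/EBPβ, and Fmo2, which rose past both thresholds at a level well above the floor, is shown with the stretch before its start for this reason. The 250 bases before its farthest upstream RefSeq start are at chr1:162898759-162899008 (GRCm38.p6, minus strand) and match GRCm39 exactly at chr1:162726328-162726577, 33 bases from the annotated gene. The capitals mark the only match to the C/EBP motif TTGCNNAA, 84 to 77 bases before the start.
Fmo2: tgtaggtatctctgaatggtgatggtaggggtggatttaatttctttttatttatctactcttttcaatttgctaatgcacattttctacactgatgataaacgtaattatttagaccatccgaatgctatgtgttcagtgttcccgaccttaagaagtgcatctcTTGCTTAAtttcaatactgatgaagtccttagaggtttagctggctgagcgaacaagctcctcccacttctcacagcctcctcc
The motif occurs in 9.56% of 32851 RefSeq promoters of 250 bases, on either strand. A search for 4 other motifs on both strands found no match to AGAACA (glucocorticoid receptor; in 16.1% of promoters), AGGTCA (nuclear receptors; 14.0%), GCGTG (AhR; 28.2%) or TGACNNNGC (NRF2; 10.2%). The stretch had a GC content of 39.6%, against a median of 52.4% over all promoters. A match of letters is a description and not a binding site. Of the other members, the RefSeq windows of Fmo4 and Fmo5 overlapped the annotated gene and were not used, and Fmo1 is named only.

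Genes that share substrates, electrons or tasks with the FMOs were examined as 5 lists with 63 distinct genes tested. Of these, 0 passed an adjusted p-value of 0.05 (edgeR), which 0.0416% of all genes tested did. Hypotaurine is made from cysteine, and of the taurine pathway 9 of 10 genes were tested, since Gadl1 had 0 counts. At an unadjusted p-value under 0.05, 2 were higher and 1 was lower, beside 6.53% of all genes tested that were higher and 11.9% that differed either way, and the median log2 fold change of the list was 0.04. Vnn1, the pantetheinase that releases cysteamine, had 32.4, 16.9 and 26.1 CPM with vehicle and 36.2, 38.3 and 62.5 CPM with esculetin (log2 fold change 0.86, SE 0.25, unadjusted p = 0.00663, adjusted p = 0.242, edgeR). Its fold change fell under 1.5 without esculetin replicate 3 (0.57, unadjusted p = 0.0261), the library that was also highest for Fmo2. Csad, the decarboxylase that makes hypotaurine, had 98.7, 56.0 and 45.5 CPM with vehicle and 38.6, 44.3 and 43.4 CPM with esculetin (-0.66, SE 0.23, unadjusted p = 0.0178, adjusted p = 0.310, edgeR). Its value rested on vehicle replicate 1, without which it was -0.27 (unadjusted p = 0.0430) and under the fold threshold. Without esculetin replicate 1 its unadjusted p-value was 0.0532. Cdo1, the cysteine dioxygenase at the head of the route, was at 1409 ± 40.8 CPM with vehicle and 1604 ± 72.3 CPM with esculetin (0.19, unadjusted p = 0.0343, adjusted p = 0.376, edgeR; over 0.05 in 4 of the 6 fits with a library left out).

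For choline and trimethylamine metabolism, 13 of 14 genes were in the table and tested. Of these, 1 was higher and 0 lower at an unadjusted p-value under 0.05, a share near the 6.53% of all genes tested that were higher. Past the fold threshold as well there were 0, beside 3.13% of all genes tested, and the median log2 fold change was -0.0014. The gene that was higher was Gnmt, the glycine N-methyltransferase, at 902 CPM with vehicle and 1077 CPM with esculetin (0.26, unadjusted p = 0.0281, adjusted p = 0.358, edgeR; over 0.05 in 4 of the 6 fits with a library left out). Of 13 genes of NADPH supply, 2 were higher and 0 lower, beside the same 6.53%, with a median of 0.08. These were Idh2, the mitochondrial isocitrate dehydrogenase (50.9 and 62.0 CPM; 0.29, unadjusted p = 0.00646, adjusted p = 0.242, edgeR), and Aldh1l1, a folate dehydrogenase (804 and 936 CPM; 0.22, unadjusted p = 0.0180, adjusted p = 0.311, edgeR; over 0.05 in 2 of the 6 fits). Without vehicle replicate 1 the number higher became 4 for NADPH supply and 2 for choline and trimethylamine, and without esculetin replicate 3 it became 3 for NADPH supply.

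The list named other phase I oxidoreductases is a broad one. It also holds electron carriers such as Por and Cyb5a, and the hydrolases Ephx1, Ephx2, Pon1 and Pon3. The list had a median log2 fold change of 0.20 beside -0.0080 for all genes tested. Of its 26 genes, 23 had a log2 fold change above 0, where 48.5% of all genes tested did, and at an unadjusted p-value under 0.05 there were 11 higher and 1 lower, beside 6.53% of all genes tested that were higher. Of these 11 genes, 6 kept an unadjusted p-value under 0.05 without vehicle replicate 2, without vehicle replicate 3 and without esculetin replicate 2, and 7 kept it without esculetin replicate 3, while without vehicle replicate 1 the list had 16 genes higher. Past both thresholds there was 1, beside 3.13% of all genes tested in either direction. It was Nqo1, a quinone reductase, with 4.46, 2.64 and 2.19 CPM with vehicle and 7.03, 9.66 and 7.35 CPM with esculetin (1.37, SE 0.26, unadjusted p = 0.000367, adjusted p = 0.132, edgeR). Por, the reductase that passes electrons from NADPH to cytochromes P450, was at 232, 184 and 195 CPM with vehicle and 292, 273 and 304 CPM with esculetin (0.51, SE 0.098, unadjusted p = 0.000438, adjusted p = 0.132, edgeR). Cyb5a, cytochrome b5, rose from 715 ± 11.3 CPM to 894 ± 52.4 CPM (0.32, SE 0.077, unadjusted p = 0.00194, adjusted p = 0.172, edgeR). Aox3, an aldehyde oxidase, was the gene that fell, from 1263 ± 165 CPM to 879 ± 89.5 CPM (-0.52, SE 0.11, unadjusted p = 0.00102, adjusted p = 0.152, edgeR). Of the 4 amidoxime reducing enzymes, which reduce N-hydroxylated compounds and of which Cyb5b and Cyb5r3 are also in the list of oxidoreductases, 1 was higher and 0 lower, beside the same 6.53% of all genes tested that were higher. It was Mtarc2 (346 and 396 CPM; 0.19, unadjusted p = 0.0294, adjusted p = 0.363, edgeR; over 0.05 in 4 of the 6 fits), and the median of the list was 0.09. Without vehicle replicate 1, 2 of the 4 were higher.

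**Figure D5:**
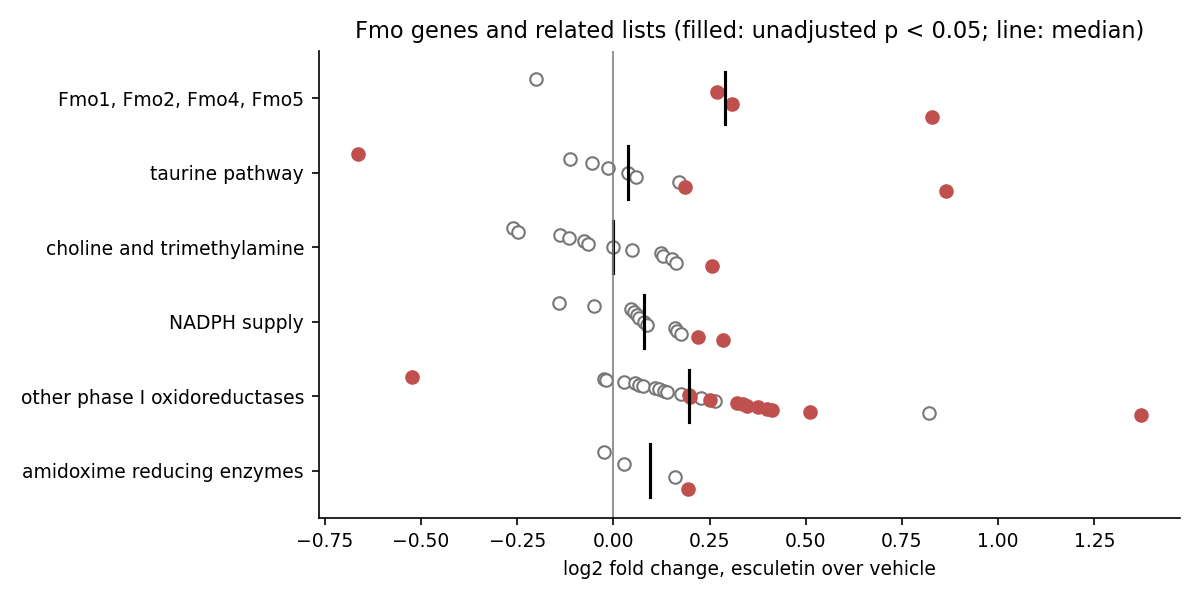
Log2 fold change of esculetin over vehicle (horizontal axis) for the 4 Fmo genes and for each gene tested of 5 related lists, where filled points have an unadjusted p-value under 0.05 and the vertical line marks the median of each list. The medians of the lists lie between -0.0014 for choline and trimethylamine and 0.20 for the other phase I oxidoreductases, and Nqo1 (1.37) lies farthest right of all genes shown.

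Markers of the cell types that a liver can hold were followed beside the Fmo genes. Of 5 hepatocyte, 8 endothelial and 8 Kupffer cell markers, 0 passed an unadjusted p-value of 0.05 (edgeR), beside 11.9% of all genes tested that passed either way. Beside the marker counts that follow, the same 11.9% and the 6.53% of all genes tested that were higher apply. Without vehicle replicate 3, 1 hepatocyte marker was higher. The summed endothelial level was 253 to 309 CPM with vehicle and 266 to 305 CPM with esculetin, and that of Kupffer cells was 332 to 437 CPM and 341 to 353 CPM. Of 10 stellate cell and fibroblast markers, 1 was higher, Des (0.69, unadjusted p = 0.0114, adjusted p = 0.273, edgeR; 0.57 and unadjusted p = 0.0514 without esculetin replicate 2). None of the others had an unadjusted p-value under 0.05 in the fit of all libraries (1 was lower without esculetin replicate 2), the median of the list was -0.11 with 4 of 10 above 0, and their sum was 346 to 423 CPM with vehicle and 317 to 413 CPM with esculetin. Of 5 cholangiocyte markers, 1 was lower, Spp1 (-0.75, unadjusted p = 0.0174, adjusted p = 0.309, edgeR), which made up most of the sum of 39.5 to 80.4 CPM with vehicle and 30.3 to 45.7 CPM with esculetin. The others, Krt19 (0.24), Krt7 (0.63), Epcam (0.06) and Sox9 (0.34), had log2 fold changes above 0 that did not pass the test (1 did without esculetin replicate 3), and the median of the list was 0.24. Spp1 was at -0.47 (unadjusted p = 0.0851, edgeR) without vehicle replicate 3 and at -0.55 (unadjusted p = 0.0657) without esculetin replicate 2. Lymphocyte markers summed to 1.80 to 1.93 CPM with vehicle and 1.61 to 2.77 CPM with esculetin, with Cd79a higher (1.12, unadjusted p = 0.0422, adjusted p = 0.398, edgeR). The unadjusted p-value of Cd79a was over 0.05 in 4 of the 6 fits with a library left out, and its log2 fold change was 0.65 (unadjusted p = 0.234, edgeR) without esculetin replicate 1. Of the adipocyte markers 1 of 4 was tested and Lep was at 0, with a sum of 1.96 to 2.55 CPM with vehicle and 1.21 to 2.39 CPM with esculetin. The gene tested, Cidec, had a log2 fold change of -0.47 (unadjusted p = 0.144, edgeR). It was lower at an unadjusted p-value under 0.05 without esculetin replicate 3. Red blood cell markers summed to 127 to 155 CPM with vehicle and 114 to 178 CPM with esculetin, with Hba-a2 higher (0.79, unadjusted p = 0.0403, adjusted p = 0.393, edgeR) and Alas2 lower (-0.24, unadjusted p = 0.00970, adjusted p = 0.262, edgeR). Alas2 kept an unadjusted p-value under 0.05 in all 6 fits with a library left out, while that of Hba-a2 was over 0.05 in 4 of them, with a log2 fold change of 0.48 (unadjusted p = 0.198, edgeR) without esculetin replicate 1. No summed marker level separated the groups as Fmo2 and Fmo5 did, and the part of the markers that moved in the Fmo values was not tested.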

How the data were processed

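Livers of 3 vehicle and 3 esculetin libraries were grouped by the treatment given in the labels. The authors mapped 150-bp paired-end reads with HISAT2 2.2.1, counted them with featureCounts and deposited raw counts per gene. The paper names GRCm39 for RNA-seq and mm10, which the submitters' processing notes also list, for other assays of the study, and the annotation release and strandedness are not given in the sources used here. Table columns were matched to libraries by group and number. Symbols, exons and coordinates came from GENCODE M39 (GRCm39), which held 54749 of 55357 identifiers, and promoters from RefSeq.

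The members and gene lists were chosen with earlier results of these data known. Counts were filtered with filterByExpr, normalized with TMM and compared in edgeR 4.0.16 (R 4.3.3) by its quasi-likelihood test, with Benjamini-Hochberg adjustment over 14433 genes. A call required a fold change over 1.5 together with an unadjusted p-value under 0.05. The biological coefficient of variation was 14.6%. Named genes were the members, Fmo6 and Fmo9, in each list the genes with an unadjusted p-value under 0.05 (at most the 4 with the smallest), the 3 genes most like each member, and the nearest genes tested beside them. Some genes to which these rules apply are not reported here. Shares used exact two-sided permutation tests (scipy 1.17.1). Chi-square per gene between libraries of a group was 26.2 or more, so none was a copy. Alternatives were DESeq2 1.42.0, limma-voom (limma 3.58.1), other size factors, filters and thresholds, libraries left out and a replicate block.

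Replicate numbers come from the labels and refer to different mice.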

Additional observations from a re-analysis of the deposited data

How the results depend on the processing

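Of the alternative values computed, 116 kept their direction and their side of the threshold or, for counts and shares, stayed within 1.5 times or 1 SD of the value reported. A further 12 counts moved more, 2 values were weaker and 6 changed sign. The 452 genes past the thresholds became 776 with no filter, 217 when a fold change over 2 was required, 1711 when no fold change was required, and 411 to 588 with a library left out. The 6 genes with an adjusted p-value under 0.05 became 193 with DESeq2, 477 with no filter, 15 with the replicate block, and 2 to 45 with a library left out. Of the 4 Fmo genes, 1 passed the thresholds in the reported fit and in each fit with a library left out, 0 when a fold change over 2 was required and 3 when none was. Of the 63 genes tested in the related lists, 3 were past the thresholds, beside 3.13% of all genes tested. These 3 became 2 to 7 with a library left out, 7 being the number without vehicle replicate 1. The log2 fold change with a library left out was 0.25 to 0.42 for Fmo1, 0.59 to 0.96 for Fmo2, -0.32 to 0.021 for Fmo4 and 0.24 to 0.33 for Fmo5. Fmo1 lost an unadjusted p-value under 0.05 without vehicle replicate 2 (0.27) and 3 (0.25), and Fmo4 reversed without vehicle replicate 1 (0.021). The difference in share was -0.563 to 1.07 percentage points for Fmo1, 0.490 to 1.36 for Fmo2, -0.549 to -0.200 for Fmo4 and -1.99 to 0.246 for Fmo5 with a library left out. It changed sign for Fmo1 without vehicle replicate 2 (-0.019) and 3 (-0.563) and without esculetin replicate 3 (-0.249), and for Fmo5 without vehicle replicate 3 (0.043) and esculetin replicate 3 (0.246). The cause of these changes was not tested, except that fewer samples enter a fit with a library left out. Adjusted p-values over the other alternatives ranged from 0.0545 to 0.415 for Fmo1, 7.82e-08 to 0.179 for Fmo2, 0.683 to 0.789 for Fmo4 and 0.0835 to 0.396 for Fmo5.

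The deviations of libraries with the same number correlated with r = -0.069, -0.011 and 0.0027, so no large deviation was shared by number. Whether such libraries share a batch or a processing day was not tested. With the replicate block the log2 fold changes were 0.31, 0.80, -0.18 and 0.27 for Fmo1, Fmo2, Fmo4 and Fmo5, and no call changed. At these depths Fmo4, with 218 to 338 counts per library, had the fewest counts of the 4 genes.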
